A study of Mus musculus with 4 samples.

Results

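The enzymes described here modify collagen chains inside the cell or cross-link collagen and elastin outside it. They comprise 5 lysyl oxidases (Lox, Loxl1, Loxl2, Loxl3 and Loxl4), the 3 alpha subunits of prolyl 4-hydroxylase (P4ha1, P4ha2 and P4ha3) and 2 lysyl hydroxylases (Plod1 and Plod2). They were chosen by gene name, as the non-control probes of the arrays that carry one of these 10 names, which gave 19 of 55670 probes. All 10 genes were among the 18093 features tested.

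The arrays measured RNA of NIH3T3 cells, a mouse embryonic fibroblast line. One group expressed the receptor tyrosine kinase EGFR in its wild-type form and the other a mutant of it with a deletion, so both share the NIH3T3 background and an expressed EGFR. Each group had 2 arrays, and the cells were untreated and at steady state. The labels give no extent of the deletion and no species of the receptor, and they do not say whether the cells were clones or pools. Nothing in them ties the arrays of a group to separate cultures, and the spread on which the p-values rest may therefore be technical.

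Collagen chains are hydroxylated in the endoplasmic reticulum before they fold. Prolyl 4-hydroxylase, a tetramer of alpha subunits with the disulfide isomerase P4hb, makes the hydroxyproline that stabilises the triple helix, and lysyl hydroxylases make the hydroxylysine used in sugar attachment and in cross-links. Both kinds of enzyme are dioxygenases that use iron, 2-oxoglutarate, oxygen and ascorbate. After secretion, the copper-dependent lysyl oxidases convert lysine and hydroxylysine side chains of collagen and elastin into aldehydes that form covalent cross-links, and fibroblasts are a main source of both enzyme groups.

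The probe used for each gene was its brightest by the mean over all 4 arrays, and all 10 were well above background on all 4 arrays, with no saturated spot. Values are log2 signals relative to the 75th percentile of the same array, so 0 is that percentile. The share of all probes called well above background was 42.9% to 46.9% per array. Of 12 fibroblast markers, 11 were above background on all 4 arrays. The summed linear signal of the list ran from 2023 to 2087 times the 75th percentile in wild-type and from 1478 to 1519 times in deletion-mutant arrays. Of the 11, 7 were lower, among them the matrix genes Col1a1, Col1a2, Col3a1 and Fn1, beside 24.2% of all features lower and 34.6% higher. Vim was higher by 0.23 (log2, limma adjusted p = 0.0448), and S100a4, Dcn and Twist1 did not pass. With arrays scaled on the 75th percentile of detected probes, 9 of the 11 were lower and none, Vim included, was higher. Under that scaling 37.2% of all features were lower and 23.6% higher. Defining markers of epithelium (Epcam, Cdh1), leukocytes (Ptprc) and skeletal muscle (Myod1, Myog) were not above background on any array. Of the listed markers, 5 of 7 epithelial, 2 of 5 leukocyte, 3 of 5 endothelial and 5 of 5 skeletal muscle genes were not above background anywhere. Of the epithelial markers that were, Cldn7 was higher by 1.43-fold and Krt8 by at least 2.79-fold in the deletion mutant, where the summed epithelial signal was 0.659 and 0.552 against 0.344 and 0.276 in wild type. Among bone and cartilage markers, 5 of 8 were above background nowhere, Sox9 was 1.39-fold and Runx2 1.63-fold higher, and the sum was 12.6 on both wild-type arrays and 17.9 and 17.1 on the deletion-mutant arrays. Among leukocyte markers, Itgam was 1.89-fold lower, while Cd68 (limma adjusted p = 0.359) and Cd3e (adjusted p = 0.225) did not pass. Itgam read 5.05 and 5.15 (log2) in wild-type and 4.18 and 4.18 in deletion-mutant arrays. The summed leukocyte signal was 35.05 and 37.57 in wild-type and 20.19 and 20.01 in deletion-mutant arrays. Among endothelial markers, Pecam1 was 1.32-fold lower (limma adjusted p = 0.0111), and Kdr did not pass (adjusted p = 0.756). Their sum was 7.13 and 6.57 in wild-type and 6.61 and 6.73 in deletion-mutant arrays. The part of these markers in the results was not tested. The array column on the 1 slide used differs between the groups, and its effect and that of the group cannot be told apart.

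Lox was 16.7-fold lower in deletion-mutant cells, Plod2 was 3.03-fold higher and P4ha3 was 2.96-fold lower. The second P4ha3 probe was only 1.61-fold lower. Loxl1 was also lower, and Loxl3 and Loxl4 were higher, all by less than 2-fold. The rise of Loxl4 holds for 1 of its 2 probes, and that of Loxl3 did not pass under 4 of 16 alternative settings. Loxl2, P4ha1, P4ha2 and Plod1 did not pass an adjusted p of 0.05 by limma, a linear model with variances shared across features. Thus 6 of 10 genes passed, 3 higher and 3 lower, in a comparison in which 58.8% of all features passed, 34.6% higher and 24.2% lower. The number that passed was therefore near the background share and says nothing particular about these enzymes. Among the 10 genes, 1 rose and 2 fell by at least 2-fold, beside 5.94% of all features that rose and 7.46% that fell as far (13.4% together). The median log2 fold change was -0.12 over the 10 genes and 0.066 over all features. The arrays of the groups did not overlap for 8 of the 10 genes, against 81.7% of all features. In these bulk samples, fewer expressing cells and less RNA per cell cannot be told apart.

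**Figure D1:**
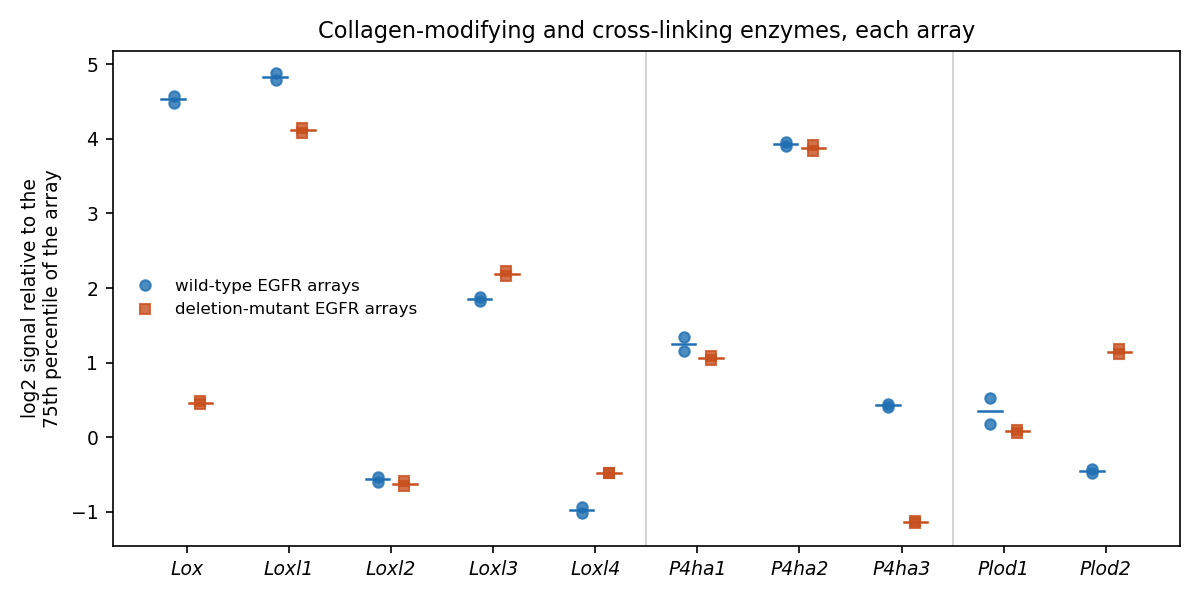
Log2 signal of each enzyme relative to the 75th percentile of the array (vertical axis), with circles for the 2 wild-type arrays, squares for the 2 deletion-mutant arrays and short lines for group means. Lox falls from a mean of 4.53 to 0.47, Plod2 rises from -0.45 to 1.15, and heights of different genes come from different probes and are not comparable.

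Lox, the founding lysyl oxidase, had the largest change. Its signal was 4.58 and 4.48 in the wild-type arrays and 0.49 and 0.44 in the deletion-mutant arrays (probe on chromosome 18, 52676912 to 52676971, minus strand, mm9). Both deletion-mutant arrays lay far below both wild-type arrays, and the arrays of each group lay close together. The log2 fold change was -4.06 ± 0.066 (SE, limma adjusted p = 0.000146, with 2 arrays in each group), which ranked 78 of 18093 features by absolute size. The second Lox probe, 52680465 to 52680524, read 3.64 and 3.71 in wild-type and -0.32 and -0.67 in deletion-mutant arrays. That is an 18.1-fold fall, and the log2 changes of the 2 Lox probes differed by 0.11 ± 0.17 (SE), less than the spread between arrays.

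Loxl1, the lysyl oxidase that acts mainly on elastin, was lower by 1.65-fold. It measured 4.79 and 4.88 in wild-type and 4.08 and 4.14 in deletion-mutant arrays, with no overlap. The log2 fold change was -0.72 ± 0.066 (SE, limma adjusted p = 0.00189). Both of its probes moved alike, by -0.72 and -0.69, a difference of -0.028 ± 0.022 (SE).

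The Loxl1 probes are shown because they target the closest relative of the founding enzyme, and both are on chromosome 9 of mm9, minus strand. The first lies at 58138570 to 58138629 and the other at 58145451 to 58145510.
Loxl1 probe 1: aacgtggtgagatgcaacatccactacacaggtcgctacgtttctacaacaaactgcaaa
Loxl1 probe 2: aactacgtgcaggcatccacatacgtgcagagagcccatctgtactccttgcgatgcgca
Among 160 pairs of probes for different genes of the group, the longest run of identical bases was 9 of 60, between the second Lox probe and the first Loxl1 probe. The Lox signal fell further than the Loxl1 signal on the same arrays: the log2 ratio of Lox to Loxl1 changed by -3.34 ± 0.11 (SE), a value that scaling by 1 constant per array cannot alter.

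Loxl2, Loxl3 and Loxl4 belong to the branch of the family that carries scavenger receptor domains before the catalytic domain. Loxl2 measured -0.53 and -0.59 in wild-type and -0.59 and -0.65 in deletion-mutant arrays, so the groups overlapped in range. Its log2 fold change was -0.058 with a 95% interval from -0.22 to 0.11 (limma adjusted p = 0.458). Only 1 of 3 Loxl2 probes was above background, at chromosome 14, 70090017 to 70090076, plus strand, mm9, and its sequence is given because the Loxl2 value rests on it alone.
Loxl2 probe: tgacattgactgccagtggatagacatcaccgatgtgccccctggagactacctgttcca
The log2 ratio of Lox to Loxl2 changed by -4.01 ± 0.020 (SE from 2 arrays per group without limma), nearly the whole change of Lox.

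Loxl3 measured 1.83 and 1.88 in wild-type and 2.16 and 2.23 in deletion-mutant arrays. Both mutant arrays were higher, by a log2 fold change of 0.34 ± 0.061 (SE, limma adjusted p = 0.0107). The rise did not pass with quantile normalization (0.19, adjusted p = 0.0565), with scaling on the detected probes (0.15, adjusted p = 0.0952), without a background filter (adjusted p = 0.0838) or without wild-type replicate 1 (0.32, adjusted p = 0.0618). With median scaling the rise was 0.52. Over all its alternatives the adjusted p of Loxl3 ran from 0.000239 to 0.0952.

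Loxl4 gave different answers from its 2 probes. The probe used, at chromosome 19, 42667320 to 42667379, mm9, read -0.93 and -1.02 in wild-type and -0.48 and -0.48 in deletion-mutant arrays, a rise of 0.50 ± 0.061 (SE, log2, limma adjusted p = 0.00377). The other, at 42668733 to 42668792, read -0.84 and -0.81 in wild-type and -0.98 and -0.81 in deletion-mutant arrays. With every probe as its own feature, that second Loxl4 probe changed by -0.066 ± 0.085 (SE, adjusted p = 0.542). The 2 log2 changes differed by 0.57 ± 0.11 (SE), so the rise of Loxl4 holds for 1 probe only. In wild-type arrays the probe used was the dimmer of the 2 (mean -0.98 against -0.83), and it was the brighter only in the deletion mutant (-0.48 against -0.89), so its choice followed from its own rise. With the mean of both probes, tried under the main scaling only, the rise of Loxl4 was 0.22 (limma adjusted p = 0.0404). For the probe used alone, scaling on the detected probes gave 0.31 (limma adjusted p = 0.0178). The log2 ratio of Lox to the Loxl4 probe that rose changed by -4.56 ± 0.025 (SE), and that of Lox to Loxl3 by -4.41 ± 0.092.

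**Figure D2:**
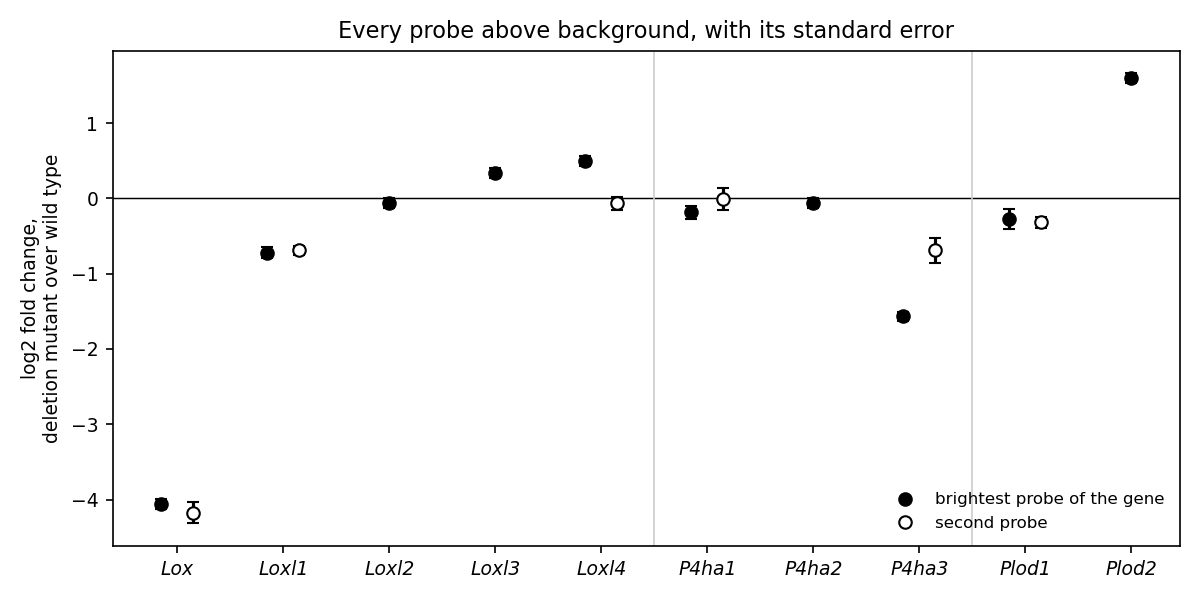
Log2 fold change of deletion mutant over wild type (vertical axis) for the 16 probes well above background, with bars of 1 standard error from limma, filled for the brightest probe of a gene and open for its second probe. Both Lox probes lie near -4, both Loxl1 probes near -0.7, and the probe pairs of Loxl4 and P4ha3 lie apart.

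Of the prolyl 4-hydroxylase alpha subunits, which carry the catalytic site, P4ha3 fell, while P4ha1 and P4ha2 did not pass the threshold. P4ha3 is the least widely expressed of the 3 subunits in adult tissues. It measured 0.41 and 0.45 in wild-type and -1.15 and -1.13 in deletion-mutant arrays, with both mutant arrays clearly lower. The log2 fold change was -1.57 ± 0.057 (SE, limma adjusted p = 0.000327), ranking 1057 of 18093 by absolute size.

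A second P4ha3 probe fell as well, but by less. It read -0.33 and -0.39 in wild-type and -0.82 and -1.28 in deletion-mutant arrays, which is 1.61-fold lower (-0.69 ± 0.17 SE, limma adjusted p = 0.0299 over all probes). The 2 changes differed by -0.88 ± 0.25 (SE), so the size of the P4ha3 fall depends on the probe. Both probes lie on chromosome 7 of mm9, plus strand, and their sequences are shown because of this difference. Probe 1 is at 107467431 to 107467490 and ends in the stop codon of an open frame, in capitals. Probe 2 is at 107463120 to 107463179.
P4ha3 probe 1: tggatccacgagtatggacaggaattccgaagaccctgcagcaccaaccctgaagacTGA
P4ha3 probe 2: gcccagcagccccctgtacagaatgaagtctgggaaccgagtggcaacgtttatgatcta

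P4ha1, the most widely expressed alpha subunit, measured 1.34 and 1.16 in wild-type and 1.04 and 1.09 in deletion-mutant arrays. The mutant arrays were lower, but by little more than the gap between the wild-type arrays. Its log2 fold change was -0.19, with a 95% interval from -0.42 to 0.046 (limma adjusted p = 0.13), and its second probe changed by -0.0028 ± 0.15 (SE). P4ha2, the alpha subunit prominent in cartilage and bone, measured 3.90 and 3.96 in wild-type and 3.92 and 3.83 in deletion-mutant arrays. These ranges overlapped, and the change was -0.057 with a 95% interval from -0.23 to 0.12 (adjusted p = 0.491). Both intervals leave out a fall as large as that of either P4ha3 probe (-1.57 and -0.69). With P4ha3 probe 1, the log2 ratio of P4ha3 to P4ha1 changed by -1.38 ± 0.11 (SE) and that of P4ha3 to P4ha2 by -1.51 ± 0.056. These ratios were not computed for P4ha3 probe 2, which fell less, so their size holds for probe 1 only.

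P4ha1 and P4ha2 are known targets of hypoxia-inducible factor, whose binding sites share the core letters ACGTG or GCGTG. The promoters of the 3 alpha subunits are shown because 1 subunit fell and the others did not pass. Promoter sequences of RefSeq on GRCm38.p6 matched 5 of the 10 genes, and the 250 bases before each start site were searched on both strands, with every match (or its reverse complement CACGT or CACGC) in capitals. The P4ha1 window is chr10:59323046-59323295, that of P4ha2 chr11:54100674-54100923 and that of P4ha3 chr7:100285270-100285519, all on the plus strand.
P4ha1: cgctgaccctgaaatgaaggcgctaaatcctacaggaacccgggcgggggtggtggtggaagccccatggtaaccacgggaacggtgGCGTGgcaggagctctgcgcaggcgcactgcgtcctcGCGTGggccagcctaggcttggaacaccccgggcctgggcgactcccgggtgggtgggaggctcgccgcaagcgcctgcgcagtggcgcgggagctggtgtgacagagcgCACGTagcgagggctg
P4ha2: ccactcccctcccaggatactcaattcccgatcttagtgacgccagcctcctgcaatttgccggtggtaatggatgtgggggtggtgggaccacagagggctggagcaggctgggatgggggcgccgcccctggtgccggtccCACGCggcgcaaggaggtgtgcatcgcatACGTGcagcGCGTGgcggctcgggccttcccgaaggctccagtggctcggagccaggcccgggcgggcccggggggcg
P4ha3: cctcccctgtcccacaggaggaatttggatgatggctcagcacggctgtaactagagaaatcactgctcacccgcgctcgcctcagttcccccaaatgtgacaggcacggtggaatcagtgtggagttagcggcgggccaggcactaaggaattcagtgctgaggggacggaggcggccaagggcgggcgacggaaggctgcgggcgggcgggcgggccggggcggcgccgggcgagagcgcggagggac
The P4ha1 window held 1 match to ACGTG and 2 to GCGTG, and the P4ha2 window likewise held 1 and 2. Neither was found in the P4ha3 window. Of 32851 promoter windows of this length, 16.57% held ACGTG, 28.16% held GCGTG and 38.6% held either. A match describes letters in this window and not a bound site. The windows of Loxl4 and Plod1 each held 1 match to GCGTG and none to ACGTG.

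Plod2 rose. This lysyl hydroxylase modifies lysines of the collagen telopeptides, the short ends outside the triple helix where lysyl oxidases act. It measured -0.47 and -0.43 in wild-type and 1.18 and 1.11 in deletion-mutant arrays, so both mutant arrays were higher (chromosome 9, 92502483 to 92502542, plus strand, mm9). The log2 fold change was 1.60 ± 0.061 (SE, limma adjusted p = 0.000365), ranking 1011 of 18093 by absolute size, and it rests on 1 probe.

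Plod1, the lysyl hydroxylase that acts on lysines within the helix, measured 0.18 and 0.52 in wild-type and 0.063 and 0.10 in deletion-mutant arrays. The wild-type arrays stood further apart than those of any other member, and the mutant arrays lay just below both. Its log2 fold change was -0.27, with a 95% interval from -0.62 to 0.087 (limma adjusted p = 0.147). Without wild-type replicate 1 it was -0.44 and passed (adjusted p = 0.0316), and the adjusted p of Plod1 ran from 0.0316 to 0.553 over the alternatives. The log2 ratio of Plod2 to Plod1 changed by 1.87 ± 0.16 (SE). A second Plod1 probe above background fell by 0.32 ± 0.071 (log2, SE, adjusted p = 0.0233 over all probes), and the remaining one was not above background on any array.

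With 2 arrays against 2, an exact permutation test of a single value cannot give a p below 0.333. None is therefore given for these ratios, which are described by their size and error. The SEs of ratios and of differences between probes come from the 2 arrays per group alone, without the variances that limma shares across features. They are themselves uncertain, and a small one does not mean more precision than the limma SEs of single genes.

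**Figure D3:**
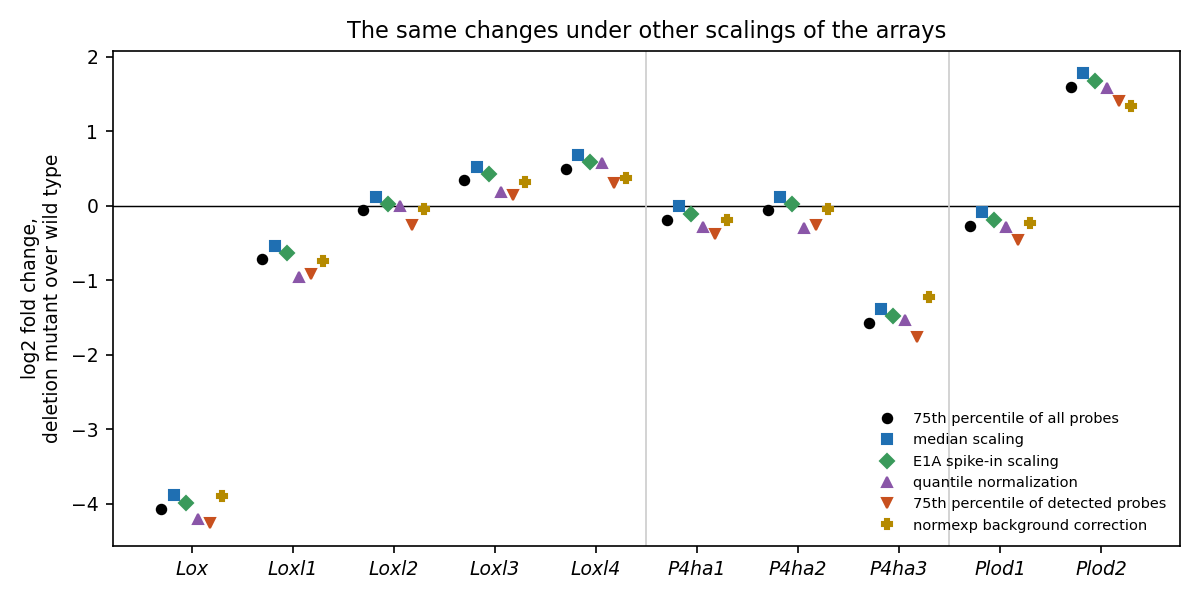
Log2 fold change of each enzyme (vertical axis) under 6 ways of scaling or background correction, 1 symbol each. Lox, Loxl1, P4ha3, Loxl3, Loxl4 and Plod2 keep their side of 0 under all 6, while Loxl2 and P4ha2 lie on both sides. P4ha1 and Plod1 also stay below 0, at -0.006 and -0.089 with median scaling.

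The scaling of the arrays moved the median of all features by -0.19 to 0.18 (log2), so changes of that size have no settled direction. Under scaling on the 75th percentile of detected probes, 7 of the 10 enzymes were lower and 2 higher, beside 37.2% and 23.6% of all features. Under quantile normalization 4 were lower and 2 higher, beside 28.0% and 29.2% of all features. Lox, Loxl1, P4ha3 and Plod2 passed in the same direction under every alternative tried, and so did the Loxl4 probe that rose. The mean of the 2 Loxl4 probes passed under the main scaling, the only one it was tried with. The second Loxl4 probe did not pass. Over all features the share of higher among changed features was 58.9%, and it ran from 38.9% to 73.5% over the other scalings.

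Partners of these enzymes were followed through lists of genes by function. Beside each count below stands the background, in which 58.8% of all features passed, 34.6% higher and 24.2% lower. The higher and lower shares were 29.2% and 28.0% with quantile normalization, and 23.6% and 37.2% with the percentile of detected probes. With median scaling 8696 of 18093 features were higher and 3140 lower. Spike-in scaling gave 7234 and 3749, and the authors' log2 values gave 8700 and 3133. P4hb, the other subunit of prolyl 4-hydroxylase, was 1.30-fold lower (-0.38 ± 0.061 SE, limma adjusted p = 0.0076). Its signal was 5.52 and 5.59 in wild-type and 5.16 and 5.18 in deletion-mutant arrays, without overlap. Plod3, the lysyl hydroxylase that also transfers sugars to collagen, measured 3.87 and 3.89 in wild-type and 4.03 and 3.95 in deletion-mutant arrays and did not pass (0.11 ± 0.061 SE, adjusted p = 0.18).

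In the list of collagen modification and folding, to which P4hb and Plod3 belong, 6 of 14 measured genes were lower, 1 was higher and 7 did not pass, with a median of -0.15 (log2). The lower ones included the prolyl isomerase Fkbp14 (1.84-fold), the transcription factor Creb3l1 (1.60-fold), the prolyl 3-hydroxylase Leprel2, now P3h3 (1.60-fold), and the collagen chaperone Serpinh1 (1.43-fold). The gene that was higher was Ctage5, now Mia2, which helps export large cargo such as procollagen (1.56-fold). Under quantile normalization 10 of the 14 were lower, and under the percentile of detected probes also 10. Median scaling gave 6 lower and 3 higher with a median of 0.025, and spike-in scaling 6 and 2 with a median of -0.072. The sign of this median therefore depends on the scaling, but it lay below the median of all features under each scaling. The median of all features was 0.066 under the main scaling, 0.25 under median scaling and 0.15 under spike-in scaling. None of these 14 genes changed by 2-fold.

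Procollagen processing split within a family. Adamts2, the main protease that removes the amino-terminal propeptide, was 4.10-fold lower (-2.04 ± 0.060 SE, log2, limma adjusted p = 0.000248). Adamts14, a related procollagen protease, was 3.78-fold higher (1.92 ± 0.058, adjusted p = 0.000261). Bmp1, which removes the carboxy-terminal propeptide and also activates the Lox proenzyme, was 1.39-fold lower, its enhancer Pcolce was 2.08-fold lower, and the proprotein convertase Furin was 1.60-fold higher. All 5 measured genes of this list thus passed, 3 lower and 2 higher, with the same split under the other 5 scalings.

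Among substrates and extracellular partners of lysyl oxidases, 14 of 21 measured genes were lower and 5 higher, with a median of -0.70 (log2). Periostin (Postn), a matrix protein that binds Bmp1 and promotes activation of Lox, was 28.8-fold lower. Col5a2, a chain of the collagen V that nucleates fibrils, was 6.82-fold lower, Col5a1 was 2.39-fold lower, and fibulin 5 (Fbln5), which brings elastin and Loxl1 together, was 6.69-fold lower. The higher ones were led by lumican (Lum, 1.84-fold), Ltbp4 (1.72-fold), Col6a3 (1.43-fold) and the basement membrane chain Col4a1 (1.34-fold). Col11a1 (at least 20.3-fold) and fibromodulin (Fmod, at least 2.26-fold), named after their values were seen, were also lower and not well above background in the deletion-mutant arrays, so their folds are bounds. Between 13 and 16 of the 21 were lower under the other scalings. Fibroblast markers moved with these genes: 7 of 11 were lower and 1 higher, with a median of -0.71, and their part in the falls was not tested. Col1a1, Col1a2, Col3a1, Fn1 and Dcn are in both lists.

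Genes of copper handling bear on lysyl oxidases, which take up copper in the secretory pathway. Of 9 measured, 6 were lower and 2 higher, with a median of -0.53 (log2). Under quantile normalization or the percentile of detected probes 7 were lower and none higher, and under median or spike-in scaling again 6 and 2. Atp7a, the pump that delivers copper to secreted enzymes, was 1.59-fold lower (-0.67 ± 0.060 SE, limma adjusted p = 0.00178). The copper transporter Slc31a2 and the metallothionein Mt2 were 1.53-fold and 1.44-fold lower, while the uptake transporter Slc31a1 was 1.27-fold and the chaperone Atox1 1.24-fold higher. Another secreted copper enzyme, the superoxide dismutase Sod3, was 7.75-fold lower. Aoc3, a copper amine oxidase of the cell surface that was named after its values were seen, was at least 40.9-fold lower, since it was not well above background in the deletion-mutant arrays. These bounds compare the wild-type mean with the lowest signal called above background on each mutant array, or with the probe's own signal where this is higher.

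**Figure D4:**
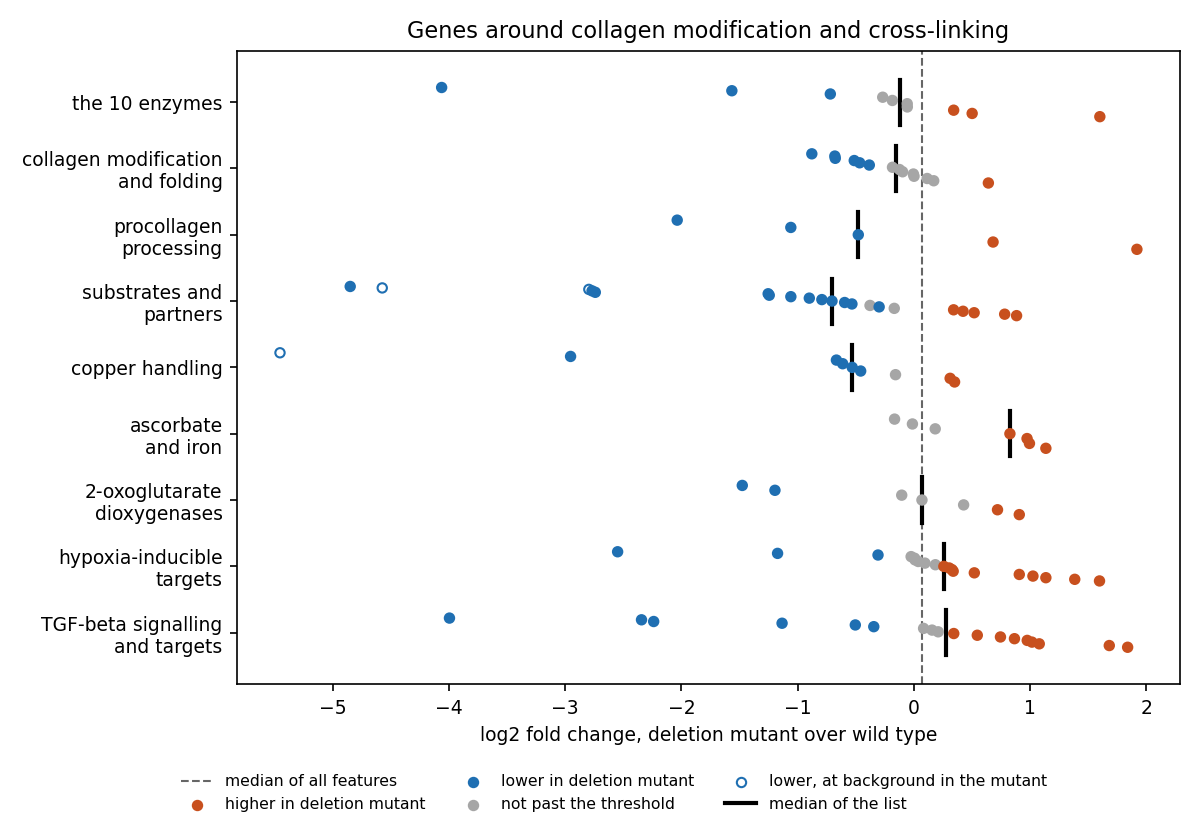
Log2 fold change of deletion mutant over wild type (horizontal axis) for each measured gene of the 10 enzymes and of 8 lists of related genes, coloured by call, with a black line at the median of a list and a dashed line at the median of all features (0.066). Substrates and copper genes lie mostly to the left, ascorbate and iron genes have no call on the left, and open circles mark fitted values that are not measured folds because the gene was at background in the deletion mutant.

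Iron and ascorbate serve the hydroxylases. Of 7 measured genes of their transport and storage, 4 were higher and none passed as lower, with a median of 0.83 (log2). The 4 were Slc2a1, a glucose transporter that also carries oxidised ascorbate (2.20-fold), the transferrin receptor Tfrc (1.99-fold), the iron exporter Slc40a1 (1.96-fold) and the iron importer Slc11a2 (1.77-fold). Under the percentile of detected probes 4 were higher and 2 lower. Of 7 other 2-oxoglutarate dioxygenases, 2 were higher and 2 lower, near the shares of all features (34.6% and 24.2%). The prolyl hydroxylase of hypoxia-inducible factor Egln3 was 1.87-fold and the aspartyl hydroxylase Asph 1.65-fold higher. Phyh, the peroxisomal phytanoyl-CoA hydroxylase, was 2.78-fold lower, and the transmembrane prolyl hydroxylase P4htm, above background on 1 of the 2 mutant arrays and named after its values were seen, 2.29-fold lower. With median scaling 4 were higher and 2 lower, and with the percentile of detected probes 2 and 3.

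Plod2, P4ha1, P4ha2 and Lox are known targets of hypoxia-inducible factor, so other targets of it were set beside them. Of 19 measured genes of that list, 10 were higher and 3 lower, with a median of 0.26 (log2). The 19 include Hif1a and Epas1, which encode subunits of the factor itself and did not pass (limma adjusted p = 0.0801 and 0.228). Vegfa was 3.02-fold higher, hexokinase Hk2 2.61-fold, Slc2a1 2.20-fold and the oxidoreductase Ero1l, now Ero1a, 2.03-fold. Slc2a1 is also counted in the ascorbate and iron list, and Egln3, which is in this list too, among the dioxygenases. Adrenomedullin (Adm) was 5.85-fold lower, the glycolytic regulator Pfkfb3 2.26-fold and the mitophagy receptor Bnip3l 1.24-fold. Median scaling gave 14 higher and 2 lower, and the percentile of detected probes 6 higher and 5 lower. The 4 enzymes themselves did not share a direction, with Plod2 higher, Lox lower and P4ha1 and P4ha2 not past the threshold.

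TGF-beta is a known inducer of Lox, Loxl genes and Plod2 in fibroblasts. Of 18 measured genes of TGF-beta signalling and its targets, 9 were higher and 6 lower, with a median of 0.28 (log2). The ligand Tgfb1 was 3.58-fold higher (1.84 ± 0.059 SE, limma adjusted p = 0.000278), and the ligand Tgfb2 was 5.08-fold lower (-2.34 ± 0.055, adjusted p = 0.000177). The feedback inhibitors Pmepa1 (3.21-fold) and Smad7 (2.02-fold) and the latency protein Ltbp1 (2.11-fold) were higher. Smooth muscle actin Acta2 (16.0-fold), Ltbp2 (4.72-fold) and Ctgf, now Ccn2 (2.20-fold), were lower, and the split ran from 8 and 6 to 12 and 4 over the other scalings.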

How the data were processed

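Total RNA of 4 samples was amplified, labelled with Cy3 and hybridised to 1-colour Agilent arrays, per the labels' protocols. Spots were read with Feature Extraction 10.10.1.1, per the file headers, which also give mm9 as the build of the probe coordinates. The deposited text files hold the brightness of each spot as intensity, background-subtracted and detrended within the array, and flags of 0 or 1, which are other values per spot, per the file headers. The authors also deposited log2 values, which differ from the log2 of the processed signal by a constant for each array (within 0.01 for 100% of probes). The sources used here do not say how that constant was set.

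Control spots and spots marked uneven or as population outliers (between 116 and 142 per array) were left out, and the log2 signal was set relative to the 75th percentile of each array. Of 55681 probes, 11 without a usable spot on some array were left out, and 25162 were kept because both arrays of at least 1 group showed them well above background. A gene was represented by its brightest kept probe. Groups were compared with limma 3.58.1 in R 4.3.3 (lmFit and eBayes) over 18093 features, with Benjamini-Hochberg adjustment and a threshold of 0.05. The residual degrees of freedom were 2 and the prior degrees of freedom 2.18. The procedure was tested on simulated data in which only a small part of the features changed. In these arrays 58.8% of features passed, so that test does not bear on the counts given here. Figures were drawn with matplotlib 3.10.9 and pandas 2.3.3 (Python 3.11.15).

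The enzymes and lists were chosen with earlier results of these data known. Of each list the text names up to 4 genes per direction with the largest change among those that passed and were above background on all 4 arrays, besides P4hb and Plod3. Of 123 measured list genes, 121 matched RefSeq by accession and 7 have a newer symbol. Exon and untranslated positions of probes were not analysed here. Alternatives were normexp (offset 50), quantile, median, spike-in and detected-probe scaling, the authors' log2 values, other filters, trend with robust variances, other probe rules, a replicate block and leaving out each array.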

Additional observations from a re-analysis of the deposited data

How the results depend on the processing

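The fall of Lox ranged from -4.26 to -3.88 (log2) over 16 alternatives and stayed past the threshold in all of them, as did those of Loxl1 and P4ha3 and the rise of Plod2. The rise of Loxl4 did so for 1 of its 2 probes and was 0.22 with their mean, against 0.50, while the second probe gave -0.066 (adjusted p = 0.542). The count of features past the threshold was 6466 without a background filter, against 10631. The number of enzymes called lower was 5 with normexp or with an intensity trend and robust variances and 7 with the percentile of detected probes, against 3. Under these 3 settings, in that order, 4478, 4802 and 6727 of 18093 features were called lower, against 4371. P4ha1 and Plod1 passed as lower under all 3 of these, and Loxl2 and P4ha2 with the percentile of detected probes; P4ha2 also passed with quantile normalization and Plod1 with the mean of its probes (adjusted p = 0.0498). Leaving out each array gave 7815 to 9561 features, 2 to 3 enzymes higher and 3 to 4 lower; a lone array is then assumed to vary like the other group. The replicate numbers share no stated day or batch, and deviations of same-numbered arrays correlated at 0.047 across features, so they were not taken to pair the samples. With the replicate block, 9990 features passed, and 3 enzymes were higher and 3 lower as before. Of the enzymes' 19 probes, 3 were not above background on any array and give no change.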
